A study of Mus musculus with 10 samples.

Results

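CD14-deficient dendritic cells that received LPS together with thapsigargin, a compound that raises cytosolic calcium, were compared with wild-type dendritic cells that received LPS alone, each at 48 and 60 h. The question was how far the calcium-restored CD14-deficient state equals, or departs from, the ordinary late LPS state. The comparison used 4 of the 10 arrays of the series, chosen by genotype, treatment and time, and paired them by time. It covered 7474 of 12393 genes on the array with 1 gene symbol, of which 6909 were above background on at least 2 of these 4 arrays. Background here is a scaled signal of 99.2, the median of all signals.

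The study measured mRNA of bone marrow-derived dendritic cells on single-colour Affymetrix arrays, with 1 array for each genotype, treatment and time. Cd14-/- cells received smooth LPS at 1 µg/ml with 50 nM thapsigargin for 48 or 60 h. Wild-type C57BL/6 cells received smooth LPS at 1 µg/ml alone for the same times. The other 6 arrays hold wild-type cells with LPS plus thapsigargin and CD14-deficient cells with LPS alone, each at 48 and 60 h, and 1 unstimulated culture of each genotype taken 24 h after plating. Both genotypes have the C57BL/6 background, and donor mice were 6 to 8 weeks old. Marrow cells were grown with 10% supernatant of B16 tumour cells that secrete GM-CSF and were used when over 90% carried CD11c, so some cells of another type can be present. CD14 was absent from all cells of the mutant mice, not from dendritic cells alone, and calcium itself was not measured on the arrays. No culture received thapsigargin without LPS. The groups compared differ in genotype and in thapsigargin at once, and the shares of these factors cannot be told apart from the 4 arrays. Wild-type LPS plus thapsigargin or unstimulated values are therefore given beside the comparison for many of the genes described.

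CD14 is a co-receptor that binds LPS and passes it to the TLR4 and MD-2 complex, from which one branch activates NF-κB and another, entered after uptake of the receptor, drives type I interferon. In dendritic cells CD14 also triggers an influx of calcium that activates calcineurin and the transcription factor NFAT, and NFAT activity in LPS-treated dendritic cells has been linked to their terminal differentiation and apoptosis. Thapsigargin blocks SERCA, the pump that returns calcium to the endoplasmic reticulum. It raises cytosolic calcium without CD14, and the emptied store also impairs protein folding and starts the unfolded protein response.

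Before scaling, the 2% trimmed means of the 10 arrays ran from 444 to 553. The number of arrays limits the precision. The 60 h wild-type LPS array stood apart in its 18S rRNA control probe sets, at 217 to 685, against 1762 to 5260 in CD14-deficient LPS plus thapsigargin cells and 2781 to 7417 in wild-type LPS cells at 48 h. Its actin 3′ to 5′ ratio was 1.62, against 1.05 and 1.14 in CD14-deficient LPS plus thapsigargin cells and 1.12 in wild-type LPS cells at 48 h. Results that rest on 1 time are named as such below. Dendritic cell markers were present on all 4 arrays, although Xcr1, a marker of cross-presenting dendritic cells, was under the floor throughout. In bulk RNA, fewer cells of a type and less RNA per cell cannot be told apart.

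Most genes had near-equal signals in the restored cells and in wild-type LPS cells. At 48 h, 701 genes were at least 2-fold apart, 334 higher (4.47%) and 367 lower (4.91%) in CD14-deficient LPS plus thapsigargin cells. At 60 h, 509 genes were, 226 higher (3.02%) and 283 lower (3.79%). By comparison, the 12 h between the arrays of one condition left 189 genes 2-fold apart in CD14-deficient LPS plus thapsigargin cells and 491 in wild-type LPS cells. The median gene differed by 1.25-fold at 48 h and by 1.21-fold at 60 h, and the signals correlated across genes with r of 0.945 and 0.950, values that describe genes and not replicates. Of the 7474 genes, 4972 (66.5%) lay within 1.5-fold at both times. In direct pairs, CD14-deficient LPS cells without thapsigargin had 2206 and 957 genes 2-fold apart from the same wild-type LPS arrays. Their 48 h array, behind the 2206, had 18S signals of 114 to 385, a Gapdh 3′ to 5′ ratio of 0.98 and 15.0 µg of cRNA, against at most 0.848 and at least 19.0 µg on the other 9 arrays, and the part of these in the count was not tested. CD14-deficient and wild-type cells that both received LPS and thapsigargin were closest among the matched pairs, with 206 and 131 genes. The plot of gene counts between pairs of arrays sets these numbers side by side.

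**Figure D1:**
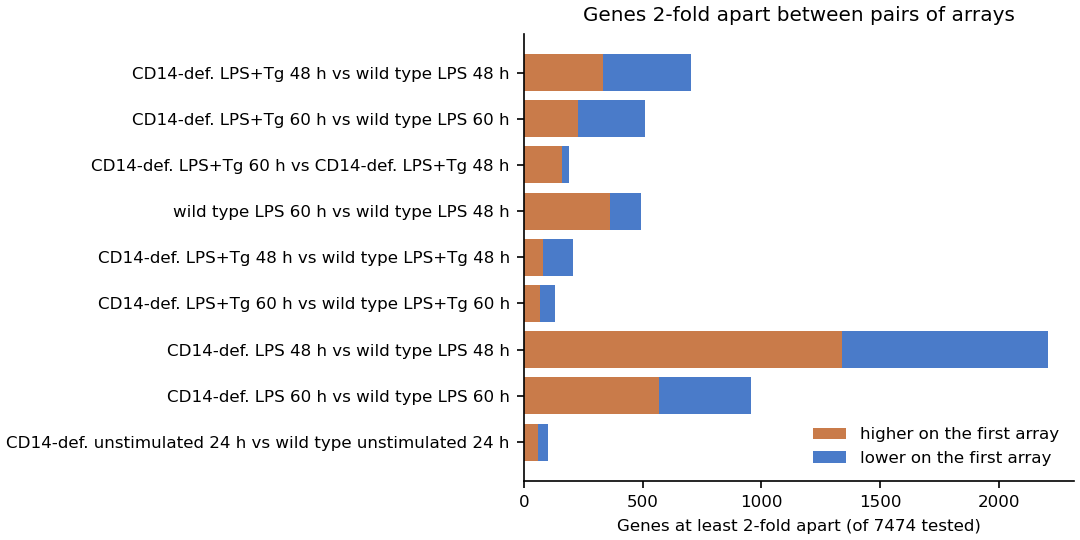
Bars give the number of tested genes at least 2-fold higher (orange) or lower (blue) on the first-named array of each pair, of 7474 genes. The calcium-restored cells differed from wild-type LPS cells at 701 and 509 genes, between the 206 and 131 against wild-type LPS plus thapsigargin and the 2206 and 957 of untreated CD14-deficient LPS cells against wild-type LPS cells.

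A set of 331 genes (4.43%) was 2-fold apart in the same direction at both times, 130 higher (1.74%) and 201 lower (2.69%) in the restored cells. Krtap12-1 and Paqr4 alone were 2-fold higher at one time and 2-fold lower at the other. A linear model over all 10 arrays in limma called 28 genes (0.375%) at an adjusted p under 0.05, 8 higher (0.107%) and 20 lower (0.268%), and 1069 genes had an unadjusted p under 0.05. All 28 were among the 331. Of these, Adh4, Clgn and Ccl24 exceeded the background of 99.2 only on arrays of the group where they were higher. The 95% interval of the difference lay within 2-fold in 4228 genes (56.6%). The spread in that model includes the CD14-deficient LPS arrays, which had 1297 genes 2-fold apart between 48 and 60 h. Without these arrays, which stand on neither side of the comparison, 1247 genes (16.7%) were called, 691 higher (9.25%) and 556 lower (7.44%), with all 28 among them and 329 of the 331. In that fit 5813 genes (77.8%) had an interval within 2-fold. Leaving out any 1 of the 4 arrays compared left between 1 and 4 genes called, and Cd14 passed in every fit. With 1 array for each condition and time, these p-values leave out how much cultures or mice vary. Below, "called" refers to the fit over 10 arrays, and calls of the fit without the CD14-deficient LPS arrays are named as such. Counts 2-fold apart in the lists below stand beside 1.74% higher and 2.69% lower over all genes. At an unadjusted limma p under 0.05, 645 of the 7474 genes were higher and 424 lower.

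**Figure D2:**
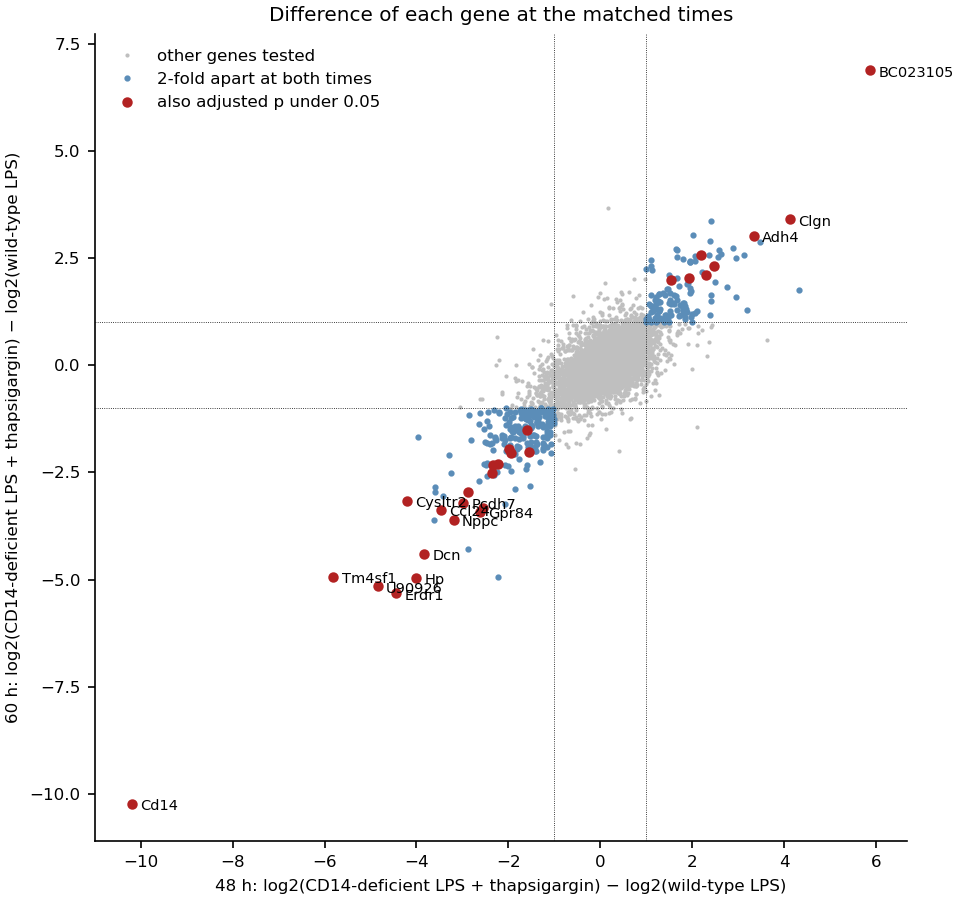
Each point is 1 of the 7474 genes, placed by its log2 difference (CD14-deficient LPS plus thapsigargin minus wild-type LPS) at 48 h and at 60 h, with dotted lines at 2-fold. The 28 called genes (red) sit far out along the diagonal among the 331 genes 2-fold apart at both times (blue), with Cd14 at −10.21 on average and BC023105 at 6.37.

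Measured from each genotype's own unstimulated array, the change in wild-type LPS cells was largely present in the restored cells. These responses share no array. The unstimulated arrays were taken at 24 h, so each response also holds the longer culture to 48 or 60 h. The part of that time was not tested. Of the 7474 genes tested, CD14-deficient cells with LPS plus thapsigargin had 833 2-fold above and 888 2-fold below their unstimulated level at both times. Wild-type LPS cells had 608 above and 728 below. Of the wild-type genes above, 455 were above in the restored cells too, which is 54.6% of the restored list and 74.8% of the wild-type list. Of the genes below, 583 were shared, 65.7% of the restored list and 80.1% of the wild-type list. CD14-deficient cells with LPS alone shared 224 (36.8% of the wild-type list) and 288 (39.6%). Across genes the responses correlated at r of 0.856 at 48 h and 0.866 at 60 h with thapsigargin, and at 0.571 and 0.773 without it, as a description in which 0.571 rests on the same 48 h CD14-deficient LPS array. In 6 genes the restored and the wild-type response were 2-fold in opposite directions at both times. They were Akr1c18, Camp, Csn2, Hp, Lifr and Nppc.

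**Figure D3:**
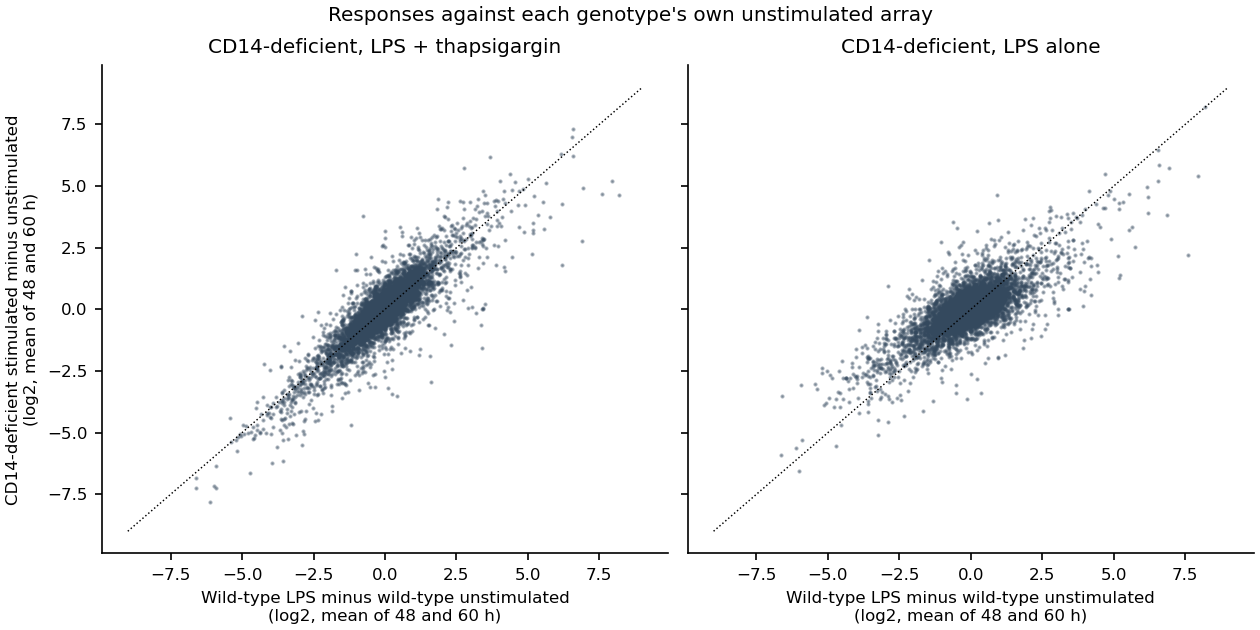
Each point is a gene, with the response of wild-type cells to LPS on the x axis and the response of CD14-deficient cells on the y axis. Both are log2 changes from the unstimulated 24 h array of the same genotype, averaged over 48 and 60 h. The dotted line marks equality. Points lie closer to the line for LPS plus thapsigargin (left, r of 0.856 and 0.866 at the 2 times) than for LPS alone (right, 0.571 and 0.773).

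Of the 10 genes with the largest LPS induction in wild-type cells, 3 were within 2-fold of wild-type LPS cells at both times. Il6, the inflammatory cytokine, had signals of 10747 and 11904 at 48 and 60 h in CD14-deficient LPS plus thapsigargin cells, against 9791 and 13008 in wild-type LPS cells. Ptgs2, the inducible cyclooxygenase, had 10642 and 11469 against 11574 and 12238. A dimmer probe set of Ptgs2 was lower in the restored cells, by −0.47 and −0.62 on the log2 scale. Hdc, which makes histamine, had 1063 and 938 against 970 and 1716. For Il6, Ptgs2 and Hdc the log2 differences were 0.00 ± 0.34, −0.11 ± 0.15 and −0.37 ± 0.29 (SE, 2 arrays against 2, limma adjusted p = 1, 0.804 and 0.617), and Hdc was 1.83-fold lower at 60 h. The other 7 of the 10, U90926, Hamp, Csf3, Vnn3, Orm1, Dcn and Tm4sf1, were 2-fold lower at both times. Vnn3, a pantetheinase, had 635 and 416 against 2291 and 1762, and Orm1, an acute-phase protein, had 2064 and 2523 against 9113 and 8225, and neither was called (adjusted p = 0.273 and 0.259).

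The interferon-stimulated genes were, as a group, close to wild-type LPS level, as were most genes. Of 46 genes listed, 38 were on the array and 37 were tested. None was 2-fold apart at both times (4.43% of all genes) and none was called by limma (0.375%). At an unadjusted p under 0.05, 3 were higher and 4 lower. Their median difference was −0.02 on the log2 scale, against 0.08 over all genes tested. In 21 of the 37 the 95% interval lay within 2-fold, and in 30 without the CD14-deficient LPS arrays. These shares were near the 56.6% and 77.8% of all genes. Promoter stretches of genes in this group are shown because many members hold a sequence element that the comparison did not use. The core of the interferon-stimulated response element, GAAA repeated after 2 bases of any kind, occurred on either strand between 250 bases before and 50 bases after the start in 14 of the 27 members with a promoter in the RefSeq table (51.9%), against 256 of all 6161 tested genes with one (4.16%). A match describes the letters only. Stretches are printed on the gene's strand, and capitals mark 1 copy of the element. In Rsad2, Ifit1 and Gbp2 it lies on the opposite strand, so that the printed strand shows TTTC in place of GAAA, and in Oas1a it lies on the gene's strand. The stretch of Ifit1 holds a further copy in lower case. In Oas1a a further copy overlaps the marked one and shares its second GAAA. The stretches are from GRCm38.p6 at chr12:26456543-26456592 (minus strand), chr19:34640765-34640814 (plus), chr3:142620584-142620633 (plus) and chr5:120907516-120907565 (minus).
Rsad2: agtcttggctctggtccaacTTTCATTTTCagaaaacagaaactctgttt
Ifit1: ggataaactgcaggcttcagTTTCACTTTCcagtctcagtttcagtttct
Gbp2: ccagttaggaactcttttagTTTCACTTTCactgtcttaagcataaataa
Oas1a: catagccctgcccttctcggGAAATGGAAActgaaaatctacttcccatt

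Rsad2, which encodes the antiviral enzyme viperin, had signals of 13735 and 12989 in CD14-deficient LPS plus thapsigargin cells, against 12464 and 9159 in wild-type LPS cells. Ifit1, an antiviral RNA-binding protein, had 5076 and 3913 against 5456 and 3572. Irf7, the regulator that amplifies interferon production, had 5705 and 4929 against 7682 and 3897. The values of each gene overlapped between the groups or lay within 1.5-fold. In CD14-deficient LPS cells without thapsigargin, Rsad2 had 735 and 2176 and Ifit1 had 470 and 676, below all 4 arrays compared. There 19 of the 37 genes were 2-fold below the same wild-type LPS arrays at both times, with a median difference of −1.60. Of all 7474 genes, 866 were 2-fold below at 48 h, on the divergent CD14-deficient LPS array, and 389 at 60 h. Wild-type LPS plus thapsigargin cells had 5 of 37 2-fold above the same wild-type LPS arrays at both times, with a median of 0.51. Of all genes, 251 were 2-fold above at 48 h and 195 at 60 h.

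Within the interferon group small departures went both ways. In the fit without the CD14-deficient LPS arrays, 4 of the 37 members were called higher and 4 lower. Of all genes 9.25% and 7.44% were, so both shares were near those of all genes. Higher were the immunoproteasome subunits Psmb8 (6983 and 5736 against 4965 and 4453) and Psmb9, the transcription factor Irf8 (9282 and 7679 against 5569 and 4330) and the immunity-related GTPase Iigp1. Lower were Gbp2, a guanylate-binding GTPase (4251 and 3791 against 7803 and 5953, log2 difference −0.76 ± 0.14), the RNA helicase Dhx58, and Oas1a and Oasl2 of the oligoadenylate synthetase family. Gbp2 had 8161 and 6329 in wild-type LPS plus thapsigargin cells, so the restored cells were lowest of the stimulated arrays, those of CD14-deficient LPS cells (6330 and 4636) included. Ifit2 depended on the time, with 2609 and 2060 in the restored cells against 2039 and 742 in wild-type LPS cells.

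Inflammatory genes differed more. Of 47 listed, 43 were tested. By limma 4 were called lower (Ccl2, Csf3, Saa3 and Hamp) and 0 higher, where 0.268% and 0.107% of all genes were. At an unadjusted p under 0.05, 15 were lower and 4 higher, beside 424 and 645 of all 7474 genes. At both times 11 of the 43 were 2-fold lower and 4 were 2-fold higher, where 2.69% and 1.74% of all genes were. The median difference was −0.14. Csf3, the granulocyte colony-stimulating factor, had signals of 362 and 726 in CD14-deficient LPS plus thapsigargin cells, against 1837 and 3656 in wild-type LPS cells, a log2 difference of −2.34 ± 0.23 (adjusted p = 0.0369). Thapsigargin-treated wild-type LPS cells had 1379 and 3995, near wild-type LPS, and CD14-deficient LPS cells had 67.1 and 130. Ccl2, which recruits monocytes, had 3154 and 3861 against 9460 and 11047, a difference of −1.55 ± 0.17 (adjusted p = 0.0382). It had 7167 and 8056 in wild-type LPS plus thapsigargin cells and 705 and 1133 in CD14-deficient LPS cells. For both genes the restored cells stood between CD14-deficient LPS cells and wild-type LPS cells, with no overlap.

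Hamp, which encodes the iron-regulating peptide hepcidin, had 907 and 654 in CD14-deficient LPS plus thapsigargin cells, against 5334 and 6592 in wild-type LPS cells (−2.95 ± 0.31, adjusted p = 0.0372). Its close copy Hamp2 had 34.7 and 37.3 against 256 and 289 (−2.92 ± 0.32, adjusted p = 0.0382), and cross-hybridisation between these near-identical genes was not tested. Saa3, an acute-phase serum amyloid, had 3743 and 2747 against 10914 and 11204 (−1.79 ± 0.20, adjusted p = 0.0382). In wild-type LPS plus thapsigargin cells Hamp had 1824 and 1886 and Saa3 had 3009 and 2254, below wild-type LPS for both genes.

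Other inflammatory members were 2-fold lower at both times without a call over 10 arrays. Tnf, the founding cytokine of its family, had 376 and 358 against 937 and 1721 (−1.79 ± 0.38, adjusted p = 0.142), while wild-type LPS plus thapsigargin cells had 1197 and 1300. The chemokine Ccl7 had 518 and 568 against 1501 and 3979, and Il10, an anti-inflammatory cytokine, had 36.8 and 58.5 against 133 and 435. Ptges, which makes prostaglandin E2 from the product of cyclooxygenase, had 630 and 900 against 3582 and 3096, while Ptgs2 was within 2-fold. Ccl4, Ccl8 and Lcn2 complete the 11. The 4 members 2-fold higher were Il23a, the p19 subunit of IL-23 (280 and 323 against 103 and 156), Il15, a cytokine for NK and memory T cells (2258 and 1424 against 978 and 705), Csf1 (1005 and 1477 against 301 and 556) and the NF-κB subunit Rel (3080 and 3317 against 1149 and 1487). A dimmer probe set of Csf1 went the other way, at −0.73 and −0.19. Il1b, Cxcl2 and Nfkbia were within 1.5-fold at both times, for example Cxcl2, a neutrophil chemokine, with 14586 and 13944 against 14432 and 14409.

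The other genes called lower were led by Cd14, which checks the labels. Cd14 had 2.22 and 1.85 in CD14-deficient LPS plus thapsigargin cells, under the floor of 13.4, against 15604 and 16192 in wild-type LPS cells, at least 1186-fold lower (adjusted p = 1.98e-05). Tm4sf1, a tetraspanin-like membrane protein, had 43.3 and 60.3 against 2430 and 1854 (−5.38 ± 0.32, adjusted p = 0.00529). U90926, a transcript that LPS induces in macrophages, had 354 and 308 against 10137 and 11000 (−5.00 ± 0.23, adjusted p = 0.00222). In wild-type LPS plus thapsigargin cells Tm4sf1 had 103 and 67.7 and U90926 had 1104 and 1328. Hp, which encodes haptoglobin, the binder of free haemoglobin, had 28.7 and 19.4 against 462 and 607 (−4.49 ± 0.32, adjusted p = 0.0135), with 29.1 and 27.3 in wild-type LPS plus thapsigargin cells. These 3 genes were thus low on all 4 arrays with thapsigargin, in either genotype.

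Ccl24, a chemokine for eosinophils, had 2.82 and 4.42 in CD14-deficient LPS plus thapsigargin cells against 147 and 138 in wild-type LPS cells, at least 10.7-fold lower. It exceeded the background of 99.2 only on the wild-type LPS arrays, so the filter favoured this direction. Nppc, the precursor of C-type natriuretic peptide, was at least 10.5-fold lower. Gpr84, a receptor for medium-chain fatty acids, had 26.2 and 43.5 against 161 and 467 (−3.02 ± 0.31, adjusted p = 0.0369). Mmp14, a membrane-bound metalloproteinase, had 677 and 1009 against 2666 and 3894. Aoah, which inactivates LPS by removing acyl chains, had 115 and 84.3 against 584 and 484 (−2.43 ± 0.28, adjusted p = 0.0413). Fyb, an adaptor of integrin signalling, had 1086 and 851 against 4171 and 3511. Wild-type LPS plus thapsigargin cells were also below wild-type LPS cells on these genes, for example with 154 and 131 for Aoah and 1192 and 1296 for Fyb. Cysltr2, a leukotriene receptor, was different, with 14.4 and 7.99 in the restored cells, 265 and 120 in wild-type LPS cells and 300 and 183 in wild-type LPS plus thapsigargin cells. The called genes Pcdh7 and Dcn, a protocadherin and the matrix proteoglycan decorin, had 5.07 and 28.7 against 106 and 267, and 64.7 and 128 against 921 and 2707. In wild-type LPS plus thapsigargin cells Pcdh7 had 9.52 and 41.7 and Dcn 131 and 159.

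Of the 8 genes called higher, Sdcbp2, a syntenin-family scaffold protein, had 2764 and 2311 in CD14-deficient LPS plus thapsigargin cells, against 603 and 392 in wild-type LPS cells (2.38 ± 0.21, adjusted p = 0.0314). Perp, a p53 target of cell junctions and apoptosis, had 428 and 540 against 76.7 and 108 (2.40 ± 0.22, adjusted p = 0.0369). Gpr35, a receptor for tryptophan metabolites, had 802 and 1199 against 277 and 302 (1.76 ± 0.20, adjusted p = 0.0382). All 3 were high in wild-type LPS plus thapsigargin cells too, with 1777 and 1452 for Sdcbp2, 371 and 453 for Perp and 1335 and 1713 for Gpr35. Clgn, a chaperone of the endoplasmic reticulum, had 235 and 142 against 4.83 and 5.20, at least 13.6-fold higher. Adh4, an alcohol dehydrogenase, had 136 and 108 against 3.72 and 2.67, at least 9.03-fold higher. Clgn and Adh4 exceeded the background of 99.2 only on the CD14-deficient LPS plus thapsigargin arrays, so the filter favoured this direction. In wild-type LPS plus thapsigargin cells Clgn had 61.6 and 39.8 and Adh4 73.4 and 65.5. Klrk1, which encodes the activating receptor NKG2D, had 1046 and 903 against 212 and 209 (2.21 ± 0.26, adjusted p = 0.0431), with 567 and 505 in wild-type LPS plus thapsigargin cells. The other called genes were BC023105 and 2810025M15Rik (305 and 316 against 80.3 and 77.7, with 155 and 174 in wild-type LPS plus thapsigargin cells).

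As a description without a call, genes with large differences at both times included Tnfsf8, the CD30 ligand (401 and 379 against 53.9 and 57.3, adjusted p = 0.0556), and Camk4, a calcium and calmodulin-dependent kinase. Camk4 had 307 and 291 in CD14-deficient LPS plus thapsigargin cells, against 51.1 and 45.2 in wild-type LPS cells (2.64 ± 0.37, adjusted p = 0.0581). Wild-type LPS plus thapsigargin cells had 71.0 and 52.8, close to wild-type LPS, and CD14-deficient LPS cells had 193 and 79.3, so the restored cells were highest. Of its dimmer probe sets, 1 was at the floor and 1 differed by 0.13 and 0.63. The lectin-like receptor gene Klrb1b had 200 and 241 against 34.0 and 42.0, and it had 125 in CD14-deficient against 49.5 in wild-type unstimulated cells. The sodium-coupled carboxylate transporter gene Slc13a3 had 91.7 and 143 against 17.9 and 24.2, with 80.2 and 130 in wild-type LPS plus thapsigargin cells, which had 406 and 497 for Tnfsf8.

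**Figure D4:**
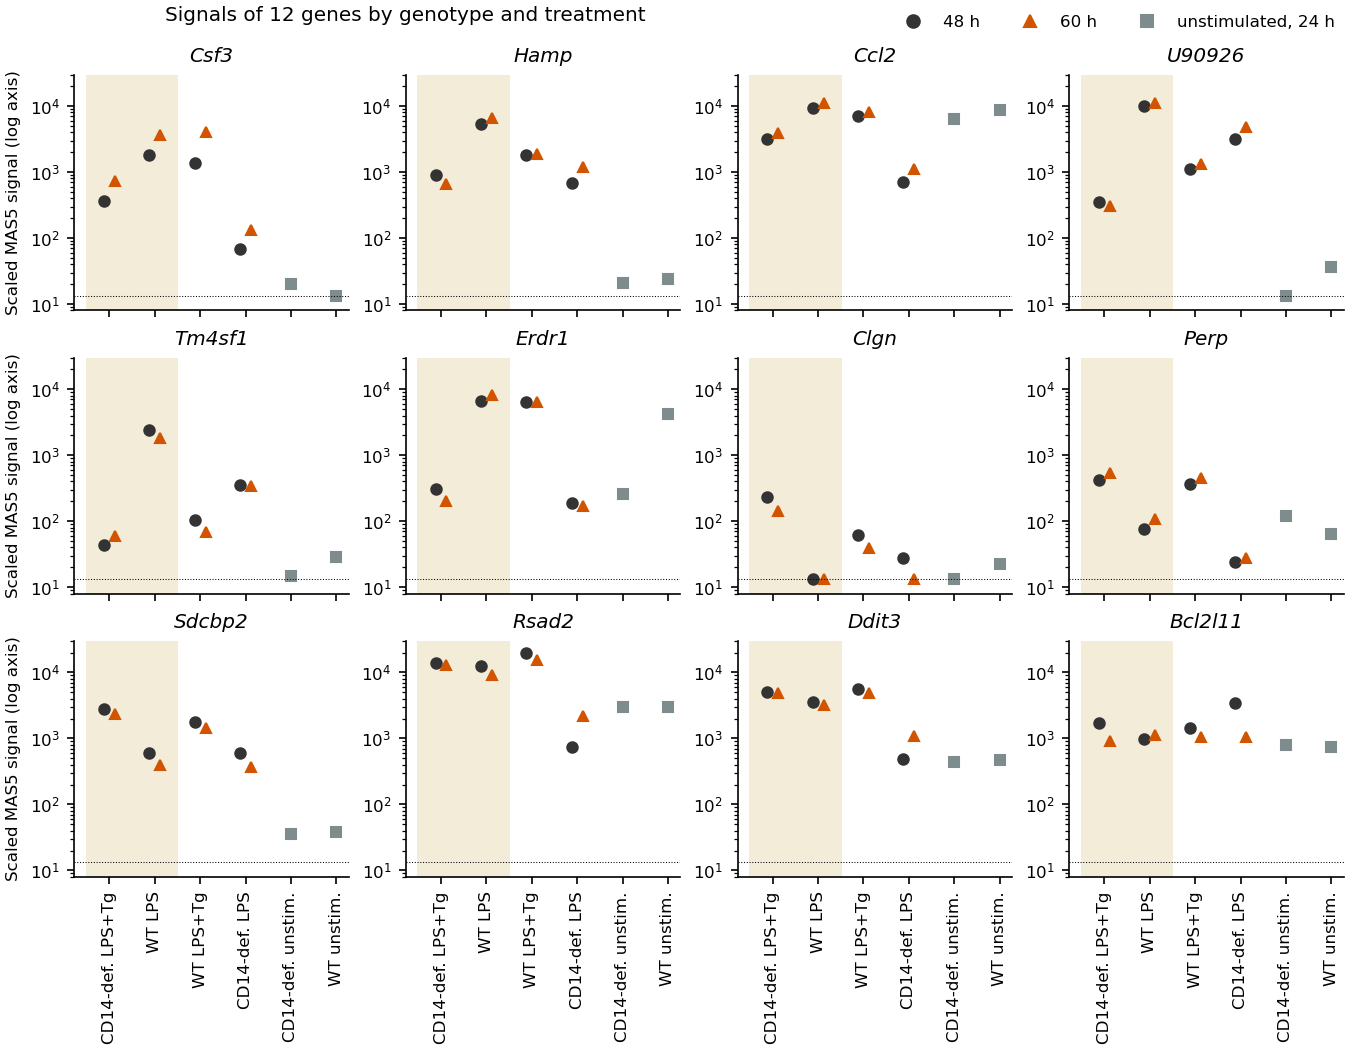
Scaled MAS5 signal on a log axis for 12 genes, with CD14-deficient LPS plus thapsigargin and wild-type LPS cells shaded, circles for 48 h, triangles for 60 h, squares for the unstimulated arrays at 24 h and a dotted line at the floor of 13.4, to which lower values were raised. Csf3, Hamp, Ccl2, U90926, Tm4sf1 and Erdr1 are lower and Clgn, Perp and Sdcbp2 higher in the restored cells, while Rsad2, Ddit3 and Bcl2l11 lie within 2-fold of wild-type LPS cells at both times.

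Dendritic cell maturation genes were mostly near or above the wild-type LPS level. Of 27 listed, 25 were tested. At both times 2 were 2-fold higher and 0 lower, where 1.74% and 2.69% of all genes were. By limma 0 were called (4 higher and 0 lower at an unadjusted p under 0.05). The median difference was 0.16. Pdcd1lg2, the PD-1 ligand PD-L2, had 1530 and 1391 against 634 and 442, and Il15 was the other. Without the CD14-deficient LPS arrays 7 of the 25 were called higher and 2 lower, where 9.25% and 7.44% of all genes were, so the share called lower was near that of all genes. Cd86, a costimulatory ligand of CD28, had 10990 and 9865 against 6327 and 5488 (0.82 ± 0.32, adjusted p = 0.338, and 0.00348 in that fit), with 10254 and 8626 in wild-type LPS plus thapsigargin cells. Ccr7, the receptor that guides dendritic cells to lymph nodes, differed by 0.80 ± 0.46.

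Genes known to be induced by NFAT did not share a direction. Of 19 listed, 13 were tested, and 1 was 2-fold higher (Nr4a2, an orphan nuclear receptor, 613 and 827 against 280 and 317) and 3 were 2-fold lower (Egr2, Il10 and Tnf) at both times. None was called by limma, with 1 higher and 3 lower at an unadjusted p under 0.05, and the median difference was 0.17. Rcan1, a calcineurin regulator whose promoter answers to NFAT, had 540 and 1297 against 327 and 494. Among 22 tested genes of calcium transport and calcineurin signalling (34 listed), Atp2a3, which encodes a SERCA pump of blood cells and thus a target of thapsigargin, had 488 and 486 against 125 and 153. The kinase gene Fyn had 949 and 783 against 392 and 326, and Src had 207 and 212 against 449 and 475. These 3 were the members 2-fold apart, none was called (4 higher and 2 lower at an unadjusted p under 0.05), and the median was 0.28. Atp2a3 had 429 and 722, and Src 192 and 240, in wild-type LPS plus thapsigargin cells.

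Chaperones and folding enzymes of the endoplasmic reticulum were mostly above wild-type LPS level by small amounts. Of 33 listed, 30 were tested. A positive difference was found in 26 (4363 of all 7474 genes), and at both times in 23 (3138 of all). The median was 0.32 against 0.08 over all genes. None was called over 10 arrays, with 11 higher and 0 lower at an unadjusted p under 0.05, and without the CD14-deficient LPS arrays 12 were called higher (9.25% of all genes) and 0 lower. The endoplasmic reticulum stress element, CCAAT and CCACG with 9 bases of any kind between them, was found on either strand in 10 of 24 promoters of the list (41.7%), against 12 of 6161 (0.195%). It is shown for 3 of these genes in capitals, on the gene's strand, from RefSeq GRCm38.p6 at chr2:34772005-34772063 (plus), chr12:17266471-17266529 (plus) and chr14:118937807-118937865 (plus).
Hspa5: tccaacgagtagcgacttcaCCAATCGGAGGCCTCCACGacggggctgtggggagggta
Pdia6: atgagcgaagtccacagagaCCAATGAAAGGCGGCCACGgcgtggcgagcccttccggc
Dnajc3: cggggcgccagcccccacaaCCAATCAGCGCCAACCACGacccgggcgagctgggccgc
Hspa5, the chaperone BiP, had 17789 and 14081 in CD14-deficient LPS plus thapsigargin cells, against 12444 and 11857 in wild-type LPS cells. Pdia6, a disulfide isomerase, had 5540 and 3852 against 3055 and 2774, and Dnajc3, a co-chaperone, had 2743 and 2007 against 1530 and 1435. The largest members were Derl3, a factor of degradation from the endoplasmic reticulum (269 and 149 against 34.6 and 49.6), and Sdf2l1, a partner of BiP (4248 and 2525 against 1598 and 1178). In wild-type LPS plus thapsigargin cells these were 343 and 175, and 6364 and 3824, so both groups with thapsigargin lay above wild-type LPS cells.

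Genes of the integrated stress response and amino acid supply were mostly above wild-type LPS level, and more so at 48 h. Of 52 listed, 34 were tested. At both times 28 were higher (3138 of all 7474 genes) and 6 lower (2104 of all). The medians were 0.78 at 48 h and 0.47 at 60 h. At 48 h 15 of 34 were 2-fold higher, at 60 h 1, and none at both times. Over all genes these shares were 4.47%, 3.02% and 1.74%. None was called by limma over 10 arrays (13 higher and 1 lower at an unadjusted p under 0.05), and without the CD14-deficient LPS arrays 17 were called higher (9.25% of all genes) and 1 lower. TTGCATCA, the response element bound by C/EBP and ATF4 factors, occurred on either strand in 8 of 28 promoters (28.6%), against 48 of 6161 (0.779%). Capitals mark 1 copy, on the gene's strand, in 3 members that differ in direction, and the stretch of Slc7a11 holds a further copy on the opposite strand in lower case. The stretches are from RefSeq GRCm38.p6 at chr8:111033710-111033757 (plus), chr13:49682117-49682164 (plus) and chr3:50443633-50443680 (minus).
Aars: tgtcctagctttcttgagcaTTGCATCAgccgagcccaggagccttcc
Iars: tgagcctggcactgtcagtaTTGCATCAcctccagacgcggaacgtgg
Slc7a11: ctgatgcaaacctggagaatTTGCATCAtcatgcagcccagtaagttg
Aars, the alanyl-tRNA synthetase gene, had 1585 and 1139 against 661 and 788, and Iars, for isoleucine, had 698 and 802 against 319 and 536. Slc7a11, the cystine importer, had 2185 and 1594 against 3958 and 3128, the opposite direction with the same element. Asns, asparagine synthetase, had 684 and 792 against 133 and 541, and Phgdh, which opens serine synthesis, had 166 and 122 against 12.3 and 81.7, so the gap was wide at 48 h and narrow at 60 h. For both genes the change over time lay on the wild-type LPS arrays. The low 18S signal of the 60 h wild-type LPS array accompanies this, and its part was not tested. Atf4, the factor of this response, had 10074 and 9343 against 7207 and 7537. Over the 34 genes, wild-type LPS plus thapsigargin cells had a median difference of 0.58 from the same wild-type LPS arrays, beside 0.62 in the restored cells.

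The cell death genes were near wild-type level, as were most genes. Among 9 tested proapoptotic members of the Bcl2 family (14 listed), 17 survival genes (21), 9 death receptors and ligands (16) and 15 caspases and regulators (18), none was 2-fold apart at both times and none was called by limma. Over all genes, 4.43% were 2-fold apart at both times and 0.375% were called. At an unadjusted p under 0.05, 4 were higher and 2 lower over the 4 lists. Their median differences were −0.15, −0.15, −0.24 and 0.03. Bcl2l11, the BH3-only protein Bim, had 1733 and 924 in CD14-deficient LPS plus thapsigargin cells, against 993 and 1117 in wild-type LPS cells, so the groups overlapped. Mcl1, a survival factor, had 7519 and 7475 against 7478 and 7478. In 17 of 17 survival genes the 95% interval was within 2-fold in the fit without the CD14-deficient LPS arrays, and in 14 over 10 arrays. In the same 2 fits it was so in 7 and 4 of 9 proapoptotic genes and 6 and 5 of 9 death receptors and ligands. Among the 15 caspases and regulators it was so in 11 and 7. Over all genes the shares were 77.8% and 56.6%. For members with a wider interval, the lack of a call does not show equality within 2-fold.

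Ddit3, Gadd45g, Nr4a1 and Tia1 form a short list of apoptosis genes remembered as followed up by this study. The list rests on recall, and that choice is not independent of these arrays. Ddit3, the stress factor CHOP, had 5108 and 4915 in CD14-deficient LPS plus thapsigargin cells, against 3545 and 3223 in wild-type LPS cells (0.57 ± 0.37, adjusted p = 0.538). Gadd45g, a growth arrest gene, had 3333 and 4154 against 3115 and 2547, and Nr4a1, the nuclear receptor Nur77, had 344 and 436 against 182 and 286. Tia1, an RNA-binding protein of stress granules, had 202 and 223 against 116 and 307, which overlap. None was called (0 at an unadjusted p under 0.05, and 2 higher in the fit without the CD14-deficient LPS arrays, where 9.25% of all genes were), and the median was 0.48. In CD14-deficient LPS cells Ddit3 had 479 and 1102, Gadd45g 256 and 507 and Nr4a1 61.5 and 29.8, all below the 4 arrays compared, while Tia1 had 583 and 359, above them. Among 21 tested p53 target genes (24 listed), Perp was called and 6 were called higher in the fit without the CD14-deficient LPS arrays (9.25% of all genes), with a median of 0.36.

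Sterol and fatty acid genes were above wild-type LPS level in part. Of 32 listed, 25 were tested. At both times 3 were 2-fold higher and 0 lower, where 1.74% and 2.69% of all genes were. None was called by limma (10 higher and 2 lower at an unadjusted p under 0.05), and the median was 0.49. Fdps, which makes farnesyl diphosphate, had 1630 and 958 against 437 and 252. Fdft1, squalene synthase, had 1842 and 1141 against 632 and 511 (1.35 ± 0.18, adjusted p = 0.0556). Stard4, a cholesterol carrier, had 979 and 511 against 233 and 219. Wild-type LPS plus thapsigargin cells had 1488 and 848 for Fdps and 1583 and 995 for Fdft1, but 365 and 268 for Stard4.

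Ribosomal protein genes were higher in 31 of 31 tested (47 listed), where 4363 of all 7474 genes were. Their median was 0.29, with Rpl12 2-fold higher. None was called by limma over 10 arrays (8 higher and 0 lower at an unadjusted p under 0.05), and 14 were called higher in the fit without the CD14-deficient LPS arrays (9.25% of all genes). Respiratory chain genes were near-equal, with a median of −0.02 over 36 genes (44 listed) and 35 intervals within 2-fold (56.6% of all genes). Proteasome (31 tested, median 0.11), heat shock (12, −0.01), glycolysis and hypoxia (22, −0.12) and NRF2 and metal genes (21, −0.02) had 0 members 2-fold apart at both times. Of 37 cell division genes (median 0.14) only Mki67, the proliferation antigen, was 2-fold lower, with 52.0 and 55.3 against 178 and 207. Of 9 housekeeping genes (median 0.07) only Gusb, the lysosomal β-glucuronidase, was 2-fold lower.

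Lysosomal and scavenger genes lay below wild-type LPS level. Of 28 tested lysosome genes (35 listed), 27 had a negative difference (3111 of all 7474 genes). In 25 it was negative at both times (2104 of all), and the median was −0.48. Glb1, Gusb and Naglu, hydrolases of galactosides, glucuronides and heparan sulfate, were 2-fold lower at both times, for example Naglu with 649 and 678 in CD14-deficient LPS plus thapsigargin cells against 1581 and 1355 in wild-type LPS cells. None was called over 10 arrays (0 higher and 7 lower at an unadjusted p under 0.05), and 14 were called lower without the CD14-deficient LPS arrays (7.44% of all genes). Of 18 tested lectins and scavenger receptors (25 listed), 5 were 2-fold lower and 0 higher, with a median of −0.51, 0 called over 10 arrays (4 lower at an unadjusted p under 0.05) and 8 called lower in the other fit (7.44% of all genes). They were Olr1, a receptor for oxidised lipoprotein (379 and 422 against 1664 and 1307), Msr1, the class A scavenger receptor (1211 and 1130 against 3638 and 2523), Marco, Mgl2 and Clec4a2. Wild-type LPS plus thapsigargin cells also lay below the same wild-type LPS arrays, with medians of −0.30 for lysosome genes and −0.57 for lectins and scavenger receptors. MHC class II presentation went the other way, with 1 of 12 2-fold higher (H2-DMb2, 1396 and 757 against 698 and 160) and a median of 0.27. In LPS recognition (10 tested of 16 listed, median −0.35) only Cd14 was 2-fold apart or called, and Tlr4, the LPS receptor, had 810 and 1038 against 933 and 1320.

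Markers of other myeloid cells moved with these groups. The summed signal of the 14 tested macrophage markers and 3 dimmer ones was 49981 and 44459 in CD14-deficient LPS plus thapsigargin cells, against 64942 and 56468 in wild-type LPS cells. Adgre1, which encodes F4/80, had 4152 and 3830 against 8473 and 7815, and Csf1r, the receptor for M-CSF, had 5170 and 4812 against 10095 and 9420. C1qc and Adgre1 were 2-fold lower at both times, 7 of 14 were called lower (7.44% of all genes) and 1 higher in the fit without the CD14-deficient LPS arrays, and Cd163 and Vsig4 were under the floor on all 4 arrays. Neutrophil markers summed to 13140 and 8669 against 23876 and 25065. Of the 8 tested, S100a8 (525 and 499 against 1698 and 1514), Lcn2, Mmp8 and Mmp9 were 2-fold lower, and Cxcr2 was under the floor. Wild-type LPS plus thapsigargin cells had 3 of 14 macrophage and 6 of 8 neutrophil markers 2-fold below the same wild-type LPS arrays at both times. Of all 7474 genes, 254 were 2-fold below at 48 h and 212 at 60 h. The part of these cells in the lysosome, lectin and inflammatory differences was not tested.

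Dendritic cell markers summed to 48206 and 45415 in CD14-deficient LPS plus thapsigargin cells, against 38778 and 38236 in wild-type LPS cells, with Irf4, a factor of migratory dendritic cells, 2-fold higher (548 and 1168 against 268 and 527) and a median of 0.23 over 15. Itgax, which encodes CD11c, had 983 and 750 against 2921 and 1002. Stromal markers summed to 836 and 966 against 1623 and 3529, where Dcn was called and Acta2 was 2-fold lower, and Col1a1 and Pdgfra were under the floor on all 4 arrays. B cell markers summed to 3865 and 4316 against 9531 and 9010, with Sdc1, Jchain and 1 probe set of Ighm 2-fold lower and Ebf1 under the floor. Mast cell markers (1552 and 1490 against 1593 and 2520) had none of 4 tested 2-fold apart at both times. Of T and NK cell markers, only Klrd1, an NK receptor, was tested and was 2-fold higher (182 and 203 against 50.6 and 92.9), with Cd3e, Nkg7 and Ncr1 under the floor, the sums being 281 and 289 against 193 and 167. Erythroid markers had 0 genes tested, with sums of 110 and 110 against 150 and 129, and Hba-a1 was under the floor.

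**Figure D5:**
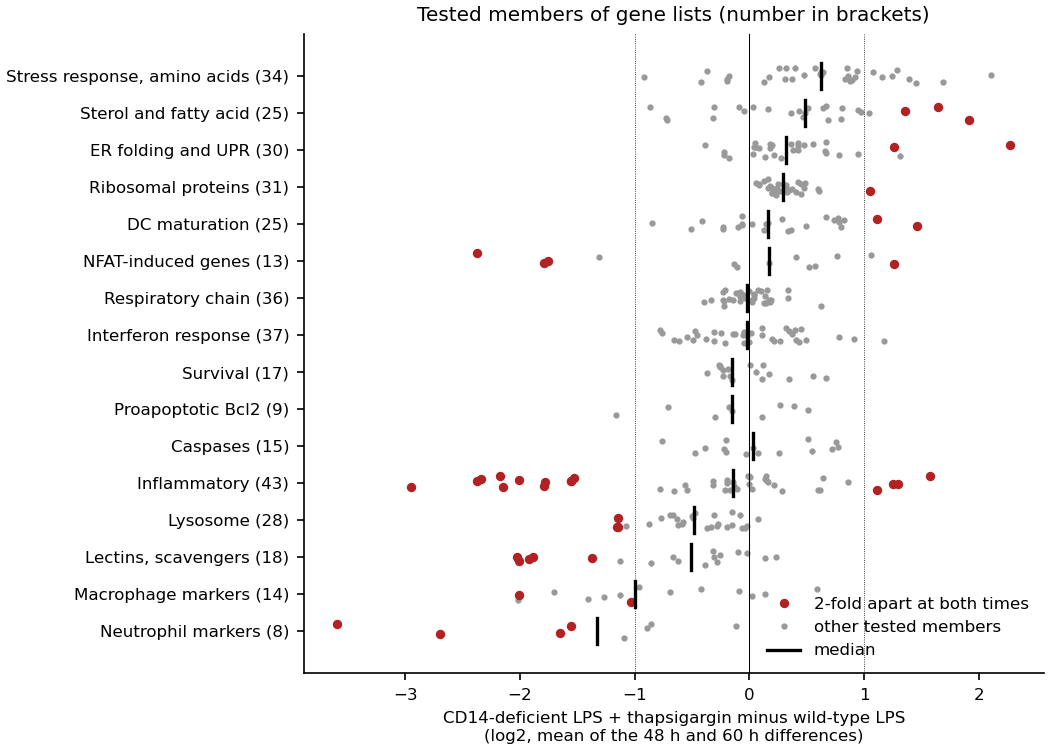
Each point is a tested gene of a list, placed by its log2 difference (CD14-deficient LPS plus thapsigargin minus wild-type LPS, mean of 48 and 60 h), red where 2-fold apart at both times, with the list's median as a bar and dotted lines at 2-fold. Stress response and sterol genes lie to the right (medians 0.62 and 0.49), interferon and respiratory chain genes around 0 (−0.02 each) and lysosome, lectin, macrophage and neutrophil genes to the left (−0.48, −0.51, −0.998 and −1.32).

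Part of the departure was already present between the unstimulated cultures, which share no array with the comparison. Of the 130 genes 2-fold higher in the restored cells, 13 (10.0%) were 2-fold higher in CD14-deficient than in wild-type unstimulated cells, against 0.776% of all genes, and 2 were lower. Of the 201 genes 2-fold lower, 16 (7.96%) were 2-fold lower unstimulated, against 0.549% of all genes, and 8 were higher. Among the 28 called genes, those already apart the same way were BC023105, Cd14, Erdr1, Rpgrip1 and U90926. For U90926 this rests on dim signals, 8.29 in CD14-deficient against 36.1 in wild-type unstimulated cells, with 8.29 under the floor of 13.4. Erdr1, an erythroid differentiation regulator, had 305 and 205 in CD14-deficient LPS plus thapsigargin cells against 6662 and 8191 in wild-type LPS cells (−4.88 ± 0.24, adjusted p = 0.00222). It had 258 in CD14-deficient and 4239 in wild-type unstimulated cells, and 6519 and 6365 in wild-type LPS plus thapsigargin cells, so its level followed the genotype on all these arrays. Rpgrip1, a photoreceptor ciliary protein, had 86.4 and 81.5 against 404 and 401, and 99.2 against 563 unstimulated, on the brightest of its 4 probe sets. BC023105 had 1599 and 1598 against 27.4 and 13.6 (6.37 ± 0.76, adjusted p = 0.0443), and 159 against 5.20 unstimulated, the latter under the floor. It had 77.6 and 317 in CD14-deficient LPS cells. BC023105 lies on chromosome 18, as does Cd14.

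The treatment contrast with the genotypes exchanged, wild-type LPS plus thapsigargin minus CD14-deficient LPS, also shares no array with the comparison and was added after the data were seen. Of the 130 genes 2-fold higher in the restored cells, 28 (21.5%) were 2-fold higher with thapsigargin in this contrast at both times, against 3.53% of all genes, and 7 (5.38%) were lower. Of the 201 genes 2-fold lower, 42 (20.9%) were lower here too, against 4.21% of all genes, and 17 (8.46%) were higher. At 60 h alone, without the divergent 48 h CD14-deficient LPS array, 59 of the 130 (45.4%) and 108 of the 201 (53.7%) went the same way, against 7.32% and 8.74% of all genes. The genes that went the opposite way, lower in the restored cells and higher in wild-type LPS plus thapsigargin than in CD14-deficient LPS cells, included the called genes Cd14, Erdr1, Rpgrip1, Csf3, Ccl2 and Cysltr2. Thus Csf3, Ccl2 and Cysltr2 were lower on CD14-deficient arrays in both contrasts, whichever side had thapsigargin.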

How the data were processed

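RNA of 10 cultures was measured on Affymetrix arrays, 1 for each genotype, treatment and time. The authors deposited 1 linear intensity per probe set, made with MAS5 per the submitters' processing notes. Its version and target value are not stated in the sources used here. Each array was scaled to a common 2% trimmed mean of 509, the pooled 25th percentile (13.4) served as a floor for dimmer signals, and values were converted to log2. Of 22690 probe sets, 20380 had 1 symbol in the platform table, 691 had several and 1619, the 64 controls included, had none. Of the 20380, 20351 matched RefSeq by Entrez ID, with 0 symbols changed. The brightest probe set stood for each gene, and genes entered the tests where 2 or more of the 10 arrays exceeded the pooled median signal (99.2).

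All 10 arrays entered limma 3.58.1 (R 4.3.3) with 6 genotype-treatment levels and a time term (60 h over 48 h), which pairs the arrays by time. Variances were moderated with an intensity trend (3 residual degrees of freedom, prior 2.95), and two-sided p-values were adjusted by the Benjamini-Hochberg method over 7474 genes. Where both arrays of a group were at the floor, the fold is a lower bound. Calls across many genes were tested on simulated data in which a gene had the same spread on every array. The CD14-deficient LPS arrays varied more than the others, so the simulation cannot check the number of genes called here.

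The comparison, its members and the gene lists were chosen with earlier results of these data known. Genes named are the 20 with the largest difference in each direction among those called and 2-fold apart at both times. Where fewer than 10 were called, genes 2-fold apart at both times were ranked by the smaller difference, as a description. Only some of the first 20 in that ranking are named, including lower-ranked ones while others above them are left out. Also named are list members called or 2-fold apart at both times and up to 4 others of each list. Cd14, the 4 genes remembered as followed up and the 10 most induced in wild-type LPS cells were named too. Others were named after their values were seen. Promoters of 300 bases came from a RefSeq table (GRCm38.p6). Alternatives covered scaling, floor, filter, probe set, variance model, time term and arrays in the fit.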

Additional observations from a re-analysis of the deposited data

Results flagged for a closer look

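Krtap12-1 and Paqr4 were 2-fold apart between the groups in opposite directions at 48 and 60 h. Krtap12-1, a keratin-associated protein gene, had log2 differences of 2.10 at 48 h and −1.45 at 60 h, from signals of 70.2 and 9.57 in CD14-deficient LPS plus thapsigargin cells against 16.4 and 36.7 in wild-type LPS cells. Paqr4, a membrane receptor of the progestin and adipoQ family, had differences of −1.06 at 48 h and 1.43 at 60 h, from signals of 18.2 and 36.0 against 38.0 and 5.08. All 8 of these signals are below the filter of 99.2, and the difference between the times was not tested.

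Probe sets with several gene symbols or none were kept out of the gene tests. Of the 991 above the filter, 10 were 2-fold higher and 37 were 2-fold lower in CD14-deficient LPS plus thapsigargin cells at both times, 4.74% in all, against 4.43% of the named genes.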

How the results depend on the processing

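Cd14 was called in every fit, and the number of genes called (28) depended most on the arrays that set the spread. It was 1247 without both CD14-deficient LPS arrays and 813 with the 4 arrays alone (402 higher and 411 lower), and it ran from 1 to 1249 over the fits that left out 1 stimulated array (2 and 1 without the 48 h or the 60 h wild-type LPS array, 3 and 4 without a CD14-deficient LPS plus thapsigargin array, 4 and 4 without a wild-type LPS plus thapsigargin array, 1241 and 1249 without a CD14-deficient LPS array). It was 62 with the values as deposited (15 higher and 47 lower), 17 with no filter and 7 with the strict filter. Quantile normalization, the pseudocount of 16, no floor, the filter on the 4 arrays, the median probe set, no intensity trend and the 8 stimulated arrays gave 31, 32, 25, 32, 33, 32 and 34, and without an intensity trend the split was 13 higher and 19 lower. Without the time term, which pairs the arrays by time as a replicate block, 36 were called and 7 of the 28 were not. The cause of these changes was not tested. Rpgrip1 changed sign with the median of its probe sets (0.14), since its other probe sets are dim.

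The genes 2-fold higher and lower at both times (130 and 201) became 57 and 131 with the strict filter, 426 and 418 at 1.5-fold and 42 and 71 at 3-fold. With 1 time left out they ran from 226 to 334 and from 283 to 367, the inflammatory genes 2-fold lower from 11 to 12, and the interferon genes from 0 to 3 higher and from 0 to 1 lower. The share of wild-type genes below their unstimulated level that were shared was 69.7% with the values as deposited and 73.6% with the filter on the 4 arrays, and the share above was 67.3% with no filter. The genes 2-fold higher in the unstimulated pair too (13) numbered 8 with the pseudocount and 6 with the strict filter.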
